A study of Mus musculus with 4 samples.

Results

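Rnu11, Rnu12, Rnu1a1, Rnu5g and Rnu7 are 5 mouse genes for uridine-rich small nuclear RNAs (snRNAs): U11 and U12 of the minor spliceosome, U1 and U5 of the major spliceosome, and U7. They were taken by gene symbol from GENCODE M21, through the transcript names of a table of estimated small RNA counts, and each matched 1 row. The 5 genes are part of 54260 genes and other features in the table, of which another 1301 are typed as snRNA in that annotation. They were measured in 4 libraries. In the cell library labelled shDis3l2, 3 of the 5 were at least 2-fold higher than in the cell library labelled shNS, where 13.8% of all measured genes were, with Rnu12 8.84-fold higher (counting interval 8.40 to 9.31) and Rnu11 5.11-fold higher (4.47 to 5.88). In the vesicle libraries none of the 5 was at least 2-fold higher under the label shDis3l2, where 10.4% of genes were, and Rnu7 was 2.92-fold lower (2.81 to 3.03).

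The samples were RAW264.7 cells, a mouse macrophage-like line, and the extracellular vesicles that these cells shed into the medium. Cells carried a short hairpin RNA, either a non-silencing one (shNS) or one against Dis3l2 (shDis3l2), and every group, controls included, received doxycycline at 1 µg per mL for 3 days and through the last 24 h, when vesicles were collected in medium with vesicle-depleted serum. Vesicles from the pooled medium of several flasks were banded on a sucrose gradient and treated with 20 U of micrococcal nuclease before RNA extraction. Compartment and label give 4 groups of 1 library each, so no difference below has a replicate check, and the sources used here do not say whether each line was a clone.

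Libraries held 17612856 to 19741041 counts. Counts outside miRNA hairpins made up 31.7% (label shNS) and 38.8% (label shDis3l2) of the libraries from cells, but 80.9% and 89.5% of those from vesicles, so a level in CPM (counts scaled to the library's total) of all counts and one in CPM of the counts outside miRNA hairpins stand in different ratios in cells and in vesicles. Both scales are given. Dis3l2 itself had 41 counts in shNS cells and 13232 in cells under the label shDis3l2. In vesicles it had 1713 under the label shNS and 1894 under the label shDis3l2. These are counts of small RNA fragments and do not measure how much Dis3l2 mRNA was left. Of the 13232 counts, 13208.5 lay on a single transcript annotated as subject to nonsense-mediated decay. Whether the hairpin lowered Dis3l2 was not tested, and libraries are named by their labels throughout. Markers of macrophages (Lyz2, Cd68, Csf1r, Adgre1, Itgam, Ctss, Mir223) summed to 23.9 and 23.2 CPM (of all counts, as wherever CPM stands alone) for the cell pair and to 201 and 165 CPM for the vesicle pair, with 5 to 6 of the 7 above 0; Mir223 was at 0 in all 4 libraries and Itgam in shNS cells. Erythroid markers summed to 0.405 and 0.489 CPM for the cell pair and 24.4 and 18.6 CPM for the vesicle pair, epithelial markers to 20.8, 31.2, 13.9 and 12.6 CPM, and fibroblast markers (collagens) to 2.53, 2.12, 3.13 and 2.21 CPM, in the order cells shNS, cells shDis3l2, vesicles shNS, vesicles shDis3l2. Of 5 erythroid markers, Hba-a1 and Hbb-bt were at 0 throughout. The part of these markers in the results was not tested. The long nuclear RNAs Malat1 and Neat1 summed to 57.6 and 38.7 CPM for cells, against 222 and 204 CPM for vesicles.

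Spliceosomal snRNAs pair with pre-mRNA and with each other to mark and join exons. In the major spliceosome U1 pairs with the start of the intron and U2 with its branch point. In the minor spliceosome, which removes a small class of introns, U11 and U12 take these places, and U5, which holds the exon ends, works in both machines. U7 does not splice: it pairs with histone pre-mRNA and positions the cut that makes the histone mRNA end. All of these are made by RNA polymerase II, trimmed at the 3′ end, exported, given a ring of Sm proteins (in U7, a ring with Lsm10 and Lsm11 in place of a pair of Sm proteins) and, for the spliceosomal ones, brought back to the nucleus. DIS3L2 is a cytoplasmic 3′ to 5′ exonuclease that degrades RNAs with tails of uridine, with let-7 precursors and faulty snRNAs among the targets known in human cells.

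The RNA sequences behind the counts of 4 of the genes are given early because the genes share almost nothing but their Sm site, which bears on how well reads of 50 nt can be told apart between them. They are the transcripts of GENCODE M21 (GRCm38), written as DNA on the RNA strand, 5′ to 3′, with the letters AATTTNT of the Sm site in capitals. For Rnu7, the first 30 of its 62 bases are shown.
Rnu11: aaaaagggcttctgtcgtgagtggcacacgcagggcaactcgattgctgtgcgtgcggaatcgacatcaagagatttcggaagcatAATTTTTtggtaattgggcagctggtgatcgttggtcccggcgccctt
Rnu12: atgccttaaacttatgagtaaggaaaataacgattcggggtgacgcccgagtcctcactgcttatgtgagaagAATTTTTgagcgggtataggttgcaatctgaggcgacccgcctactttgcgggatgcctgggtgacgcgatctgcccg
Rnu1a1: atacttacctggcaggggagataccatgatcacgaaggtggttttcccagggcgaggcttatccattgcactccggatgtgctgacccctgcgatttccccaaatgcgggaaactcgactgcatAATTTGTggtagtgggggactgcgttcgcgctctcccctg
Rnu7: aagtgttacagctcttttagAATTTGTcta

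Each of the 5 RNAs held AATTTNT once, on the RNA strand, and so did 307 of the 1383 transcripts typed as snRNA in the annotation (22.2%, at least 1 match). The longer form AATTTNTNG, which contains the shorter one, was found in Rnu11, Rnu1a1 and Rnu5g and in 99 of the 1383 (7.16%). The site began at base 87 of Rnu11, 74 of Rnu12, 125 of Rnu1a1, 87 of Rnu5g and 21 of Rnu7, which left 41, 71, 33, 23 and 35 bases after it. Rnu12 thus had the longest stretch downstream of the Sm letters. No pair of the 5 shared a run of more than 9 bases. Lengths were 134, 151, 164, 116 and 62 bases, and the share of G and C was 52.2%, 51.7%, 55.5%, 38.8% and 41.9%.

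Rnu11 (ENSMUST00000104135) lies at chr4:132270080-132270213 on the minus strand, opposite an exon of the non-coding gene Gm28872, which had 0 counts in all 4 libraries. Rnu12 (ENSMUST00000083242) lies at chr15:83149644-83149794 on the plus strand and overlaps no other annotated gene. Rnu1a1 (ENSMUST00000093684), at chr11:87422867-87423030 on the plus strand, is inside an intron of Tex14, which had 8 to 18 counts. Rnu5g (ENSMUST00000093721), at chr9:65201726-65201841 on the minus strand, is inside an intron of Parp16 on the other strand, with 12 to 34 counts. Rnu7 (ENSMUST00000158458), at chr6:124741225-124741286 on the minus strand, lies inside an exon of Grcc10 and an intron of Gm45234, both on the same strand. Gm45234 had 10 counts in the cell library labelled shDis3l2 and 0 in the other 3. Grcc10 had 183, 109, 89 and 102 counts, in the library order given above, against 8064, 10053, 10869 and 3603 for Rnu7. No source used here says whether counting used the strand, so a gene and its partner on the other strand cannot be told apart by these values.

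Near copies, defined as features that share at least 30 bases in a row with a member, mattered for U5 and U1. Rnu11 and its near copies together held at most 2 counts beyond Rnu11 in any library, and Rnu12 held at least 99.7% of the counts of its family. Rnu7 held 97.3% to 99.2%, the rest being Grcc10. Rnu1a1 held 84.1% to 91.3% of the counts that it shares with 38 near copies. The copies above 1% of its counts were Gm25890, Gm22456, Gm22126 and Gm22513, and 6 further loci identical to Rnu1a1 are not among the features of the table, so its row stands for all of them. Gm22513 had 610 counts in the cell library labelled shDis3l2 and 0 in the other 3, at least 218-fold higher than in the cell library labelled shNS if a floor of 3 counts is set there.

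Rnu5g held only 14.6%, 18.6%, 20.6% and 24.8% of the counts of its family, in the library order given above, so that its row is 1 among several forms of U5. The most abundant relative, Gm25313, lies 5038 bases from Rnu5g on the same strand, at chr9:65196572-65196687. It shares 104 of its 116 bases in a row with Rnu5g. Gm25313 had 2656, 4149, 2929 and 2227 counts against 1167, 1820, 1759 and 1576 for Rnu5g. The other relatives above 1% were Gm25099, Gm23143, Gm23287, Gm22265 and B930036N10Rik, a long non-coding transcript that contains a U5 stretch. Log2 ratios of Rnu5g are therefore given both alone and summed over the family.

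Of the minor spliceosome pair, Rnu11 had 253 counts in shNS cells, 1208 in cells under the label shDis3l2, 744 in shNS vesicles and 571 in vesicles under the label shDis3l2. These were 12.8, 65.6, 40.9 and 32.4 CPM. Its lowest library was therefore the shNS cell library and its highest the cell library labelled shDis3l2, with both vesicle libraries in between. Rnu12 had 1670, 13773, 429 and 245 counts, or 84.6, 748, 23.6 and 13.9 CPM. Both cell libraries were above both vesicle libraries, and the range over the 4 libraries was the widest of the 5 genes.

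Of the major spliceosome genes, Rnu1a1 had 7826, 19937, 9038 and 7065 counts, or 396, 1083, 497 and 401 CPM. The cell library labelled shDis3l2 stood above the other 3, which lay close together. Rnu5g had 59.1, 98.8, 96.7 and 89.5 CPM, the narrowest range of the 5, with the shNS cell library lowest. Rnu7 had 408, 546, 598 and 205 CPM, with the vesicle library labelled shDis3l2 lowest and the shNS vesicle library highest. In bulk RNA, fewer cells that make an RNA and less of it per cell cannot be told apart.

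**Figure D1:**
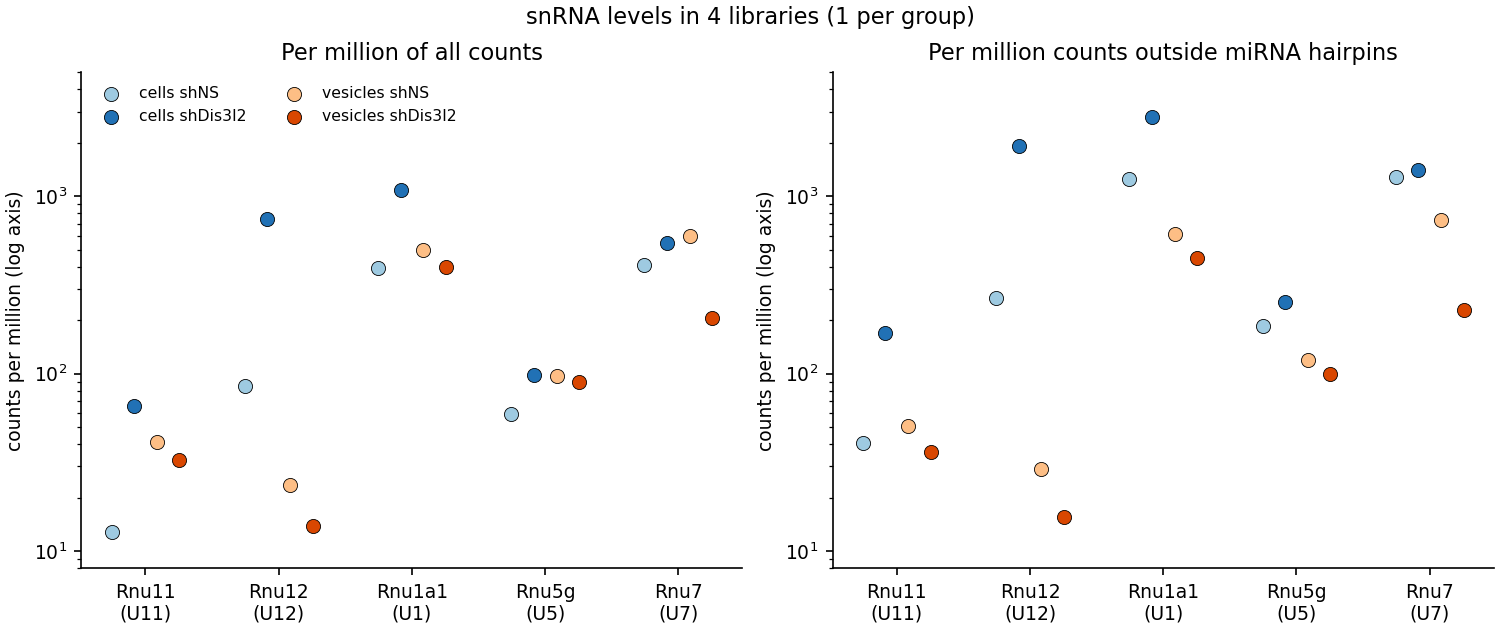
Levels of the 5 snRNA genes in the 4 libraries, as CPM of all counts (left) and CPM of the counts outside miRNA hairpins (right), both on a log axis. Each point is 1 library. Rnu12 runs from 13.9 to 748 CPM on the left, and on the right both vesicle points of Rnu12, Rnu1a1, Rnu5g and Rnu7 lie below both cell points.

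On the scale outside miRNA hairpins, Rnu11 had 40.4, 169, 50.6 and 36.2, and Rnu12 had 267, 1928, 29.2 and 15.5. Rnu1a1 had 1250, 2791, 614 and 448 on that scale, Rnu5g 186, 255, 120 and 100.0, and Rnu7 1288, 1407, 739 and 229. On this scale Rnu12, Rnu1a1, Rnu5g and Rnu7 were lower in both vesicle libraries than in both cell libraries, while the 2 shNS libraries of Rnu11 were close.

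Between genes, levels were compared per length (CPM per kilobase of annotated RNA). In the shNS cell library Rnu7 stood at 6589 CPM per kb, Rnu1a1 at 2417, Rnu12 at 560, Rnu5g at 510 and Rnu11 at 95.6. The counting intervals of Rnu12 (534 to 588) and Rnu5g (481 to 540) overlapped there and those of the other neighbours did not. The Rnu5g row held only 14.6% of the counts of its family in that library, and 18.6% in the cell library labelled shDis3l2. Its place in the order is therefore that of 1 row and not of U5 as a whole. In the cell library labelled shDis3l2 the order was the same, with Rnu7 at 8804, Rnu1a1 at 6601, Rnu12 at 4953, Rnu5g at 852 and Rnu11 at 490 CPM per kb. In both vesicle libraries Rnu12 was the lowest of the 5, at 156 and 92.1 CPM per kb under the labels shNS and shDis3l2, below Rnu11 at 305 and 242. The reads come from fragments that a small RNA kit takes up, so these levels are those of fragments and not of whole snRNAs.

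In cells, the label shDis3l2 went with more of the minor spliceosome RNAs. A gene was counted as higher or lower when its ratio was at least 2-fold and the exact 95% interval for counting error excluded 1. This held for 3 of the 5 genes in the higher direction, where 13.8% of 3402 genes with at least 100 counts in the 2 libraries did, and for 0 in the lower direction, where 5.00% did. Rnu12 led, with a log2 ratio of 3.14 (3.07 to 3.22) that 99.2% of the genes lay below. Rnu11 had a log2 ratio of 2.35 (2.16 to 2.56), with 97.7% of the genes below it.

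Rnu1a1 was 2.73-fold higher (2.66 to 2.80; log2 1.45). Rnu5g was 1.67-fold higher (1.55 to 1.80; log2 0.74) and its family 1.31-fold (log2 0.39), both short of 2-fold. Rnu7 was 1.34-fold higher (1.30 to 1.38; log2 0.42). The median log2 ratio of the 5 was 1.45, against 0.10 over all genes and 0.72 over 20 other measured snRNA-typed genes.

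On the scale outside miRNA hairpins, the log2 ratios in cells were 2.85 for Rnu12, 2.06 for Rnu11, 1.16 for Rnu1a1, 0.45 for Rnu5g and 0.13 for Rnu7. The same 3 genes were at least 2-fold higher, against 9.17% of all genes, and 0 were lower, against 9.88%. On that scale the median of all genes moved from 0.10 to -0.19.

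In vesicles, all 5 log2 ratios between the labels were below 0 on both scales. Rnu7 was the gene past 2-fold, with 10869 counts under the label shNS and 3603 under the label shDis3l2, a log2 ratio of -1.55 (-1.60 to -1.49). Only 0.934% of 8456 measured genes lay lower. Rnu12 came next at -0.76 (-0.99 to -0.53), followed by Rnu11 at -0.33, Rnu1a1 at -0.31 and Rnu5g at -0.11 (-0.21 to -0.01), with the U5 family at -0.38. Thus 1 of 5 was lower, where 2.51% of all genes were, and 0 were higher, where 10.4% were.

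Outside miRNA hairpins the vesicle log2 ratios were -1.69 for Rnu7, -0.91 for Rnu12, -0.48 for Rnu11, -0.45 for Rnu1a1 and -0.26 for Rnu5g. Again 1 was lower, against 3.55% of genes, and 0 were higher, against 8.47%. The median of all genes was 0.31 on the first scale and 0.17 on the second. With the miRNA total as the scale, which was 3477464 counts under the label shNS and 1854288 under the label shDis3l2 in vesicles, only Rnu7 kept a ratio below 0 (-0.69) and the other 4 lay at 0.10 to 0.75.

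**Figure D2:**
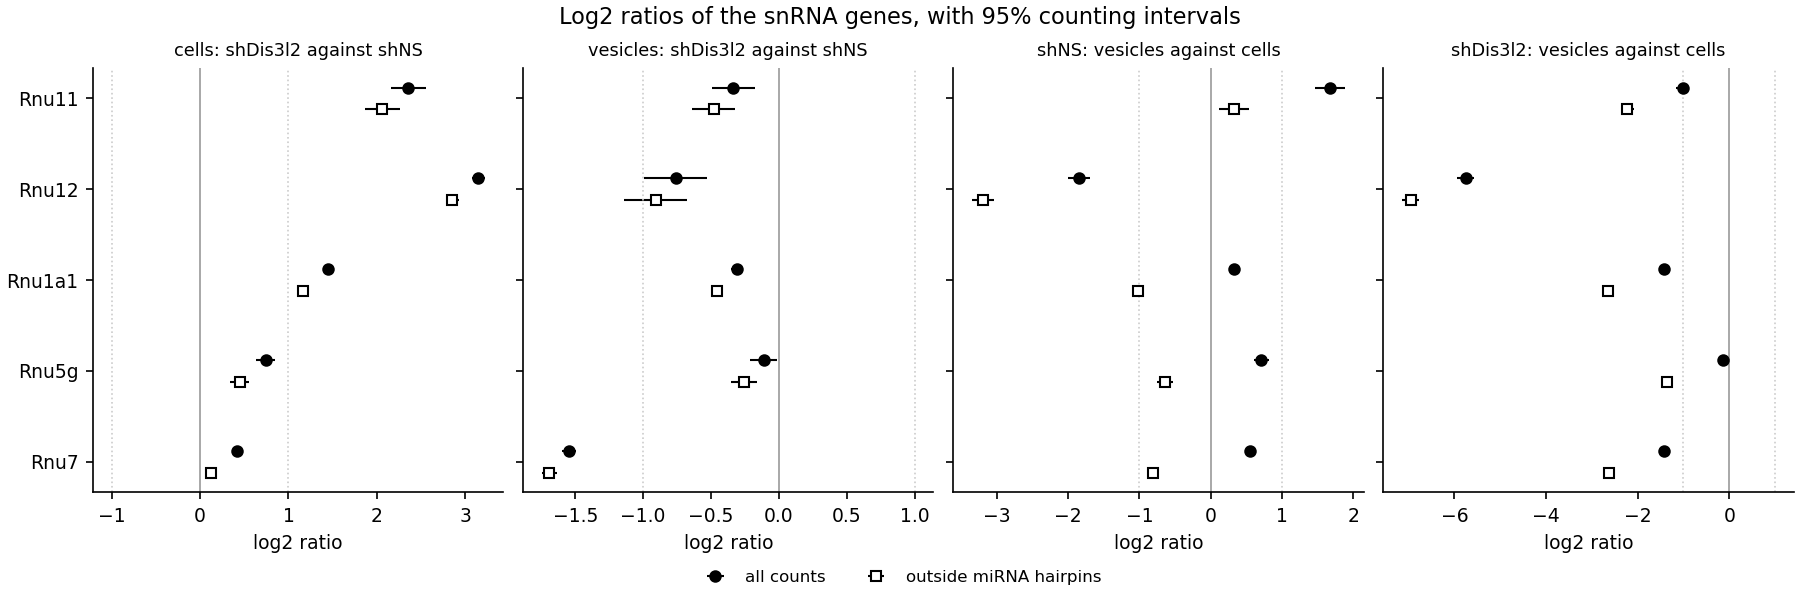
Log2 ratios of the 5 genes in the 4 comparisons, on the scale of all counts (filled circles) and outside miRNA hairpins (open squares), with 95% intervals for counting error; dotted lines mark 2-fold and each panel has its own axis. In cells all 10 points lie above 0 and in vesicles all 10 lie below 0, and Rnu12 reaches -5.75 and -6.95 in the panel of vesicles against cells under the label shDis3l2.

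Between vesicles and cells labelled shNS, the members did not move as one. On the scale of all counts Rnu11 was 3.19-fold higher in vesicles (2.76 to 3.70; log2 1.67) and Rnu12 3.58-fold lower (3.22 to 4.00; log2 -1.84), although both are partners in the minor spliceosome. Rnu5g (log2 0.71), Rnu7 (0.55) and Rnu1a1 (0.33) were below 2-fold, and the U5 family stood at 0.22. This gave 1 gene higher, where 74.7% of 6849 genes were, and 1 lower, where 13.5% were.

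The median of all genes in that comparison was 2.19, and all 5 members lay under it, with 36.8% of genes below Rnu11 and 9.53% below Rnu12. Outside miRNA hairpins, where the median was 0.84, Rnu11 stood at 0.32 and Rnu12 at -3.19. Rnu1a1, Rnu7 and Rnu5g changed sign with that scale, to -1.02, -0.80 and -0.64. On it 2 genes were lower, Rnu12 and Rnu1a1, against 19.9% of all genes, and 0 were higher, against 45.3%. Rnu11 was below 0 too under the scaling factors of edgeR (-0.23) and DESeq2 (-0.26).

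Under the label shDis3l2 every member had a log2 ratio below 0 between vesicles and cells. Rnu12 was 53.7-fold lower in vesicles (47.4 to 61.3), with 13773 counts in cells and 245 in vesicles, a log2 ratio of -5.75 that 2.38% of 7383 genes lay below. Rnu1a1 stood at -1.43, Rnu7 at -1.42, Rnu11 at -1.02 (-1.16 to -0.87) and Rnu5g at -0.14, with the U5 family at -0.56. So 4 of 5 were lower, where 12.9% of genes were, and 0 higher, where 77.0% were, with a median of all genes at 2.42.

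Outside miRNA hairpins all 5 were lower under the label shDis3l2, against 17.6% of genes, and 0 higher, against 55.7%. The log2 ratios were then -6.95 for Rnu12, -2.64 for Rnu1a1, -2.62 for Rnu7, -2.22 for Rnu11 and -1.35 for Rnu5g, and the median of all genes was 1.21. With the miRNA total as the scale, Rnu5g, Rnu11, Rnu7 and Rnu1a1 turned to 2.40, 1.52, 1.12 and 1.11. Each library enters 2 of the 4 comparisons, so the comparisons are not independent of each other.

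**Figure D3:**
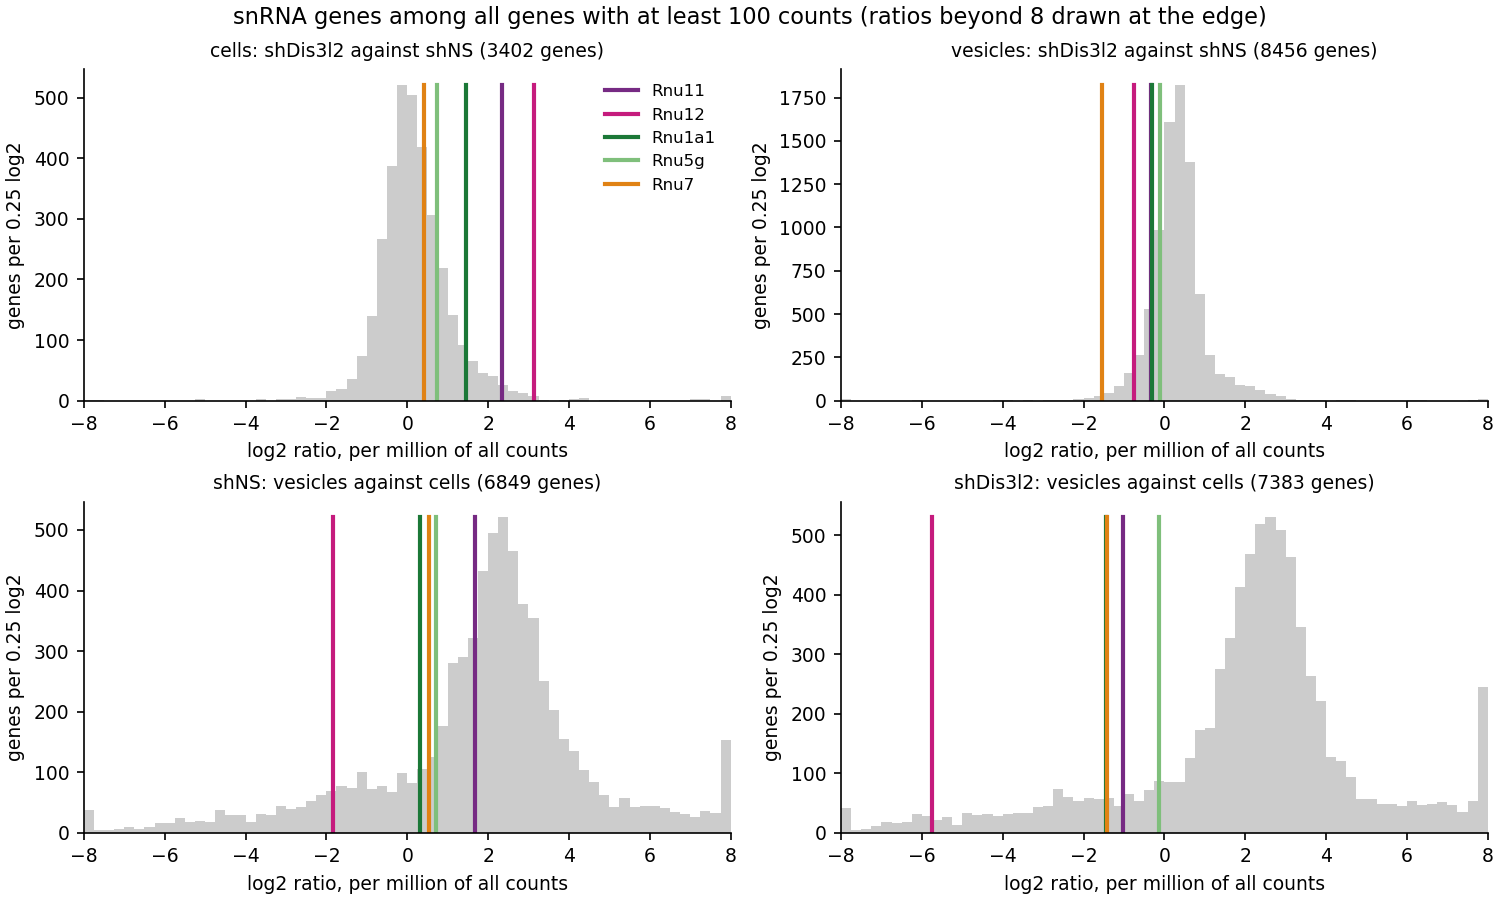
Histograms of the log2 ratios (of CPM) of all genes with at least 100 counts in each comparison, in bins of 0.25, with the 5 members as coloured lines and ratios beyond 8 drawn at the edge. In cells Rnu12 (3.14) and Rnu11 (2.35) lie in the right tail of the genes, and in both panels of vesicles against cells the members lie left of the main peak.

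Ratios between snRNAs inside 1 library need no scale. The minor spliceosome pair (Rnu11 and Rnu12) had 0.214 counts per count of the major genes (Rnu1a1 and Rnu5g) in the shNS cell library (0.203 to 0.225) and 0.689 (0.674 to 0.703) in the cell library labelled shDis3l2. In vesicles the ratio was 0.109 (0.102 to 0.115) and 0.0944 (0.0878 to 0.101) under the labels shNS and shDis3l2. The summed minor pair was thus 3.22-fold higher relative to the summed major genes under the label shDis3l2 in cells (log2 1.69, 1.61 to 1.76). In vesicles it was 1.15-fold lower (log2 -0.20, -0.34 to -0.07). In cells Rnu12 made up most of the minor sum, with 1670 and 13773 counts against 253 and 1208 for Rnu11. The rise was smaller with Rnu11 alone, as given further below. In vesicles the major sum took in only the Rnu5g row, which held 20.6% and 24.8% of the counts of its family there.

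The minor-to-major ratio had, between vesicles and cells, a log2 change of -0.98 under the label shNS and -2.87 under the label shDis3l2. Both values rested on Rnu12: with Rnu11 alone as the minor RNA they were 1.29 and 0.25. Within the pair, the shNS cell library had 6.60 counts of Rnu12 per count of Rnu11 and the cell library labelled shDis3l2 had 11.4. The vesicle libraries had 0.577 and 0.429. The pair therefore stood 11.4-fold apart between vesicles and cells labelled shNS (log2 -3.52, -3.77 to -3.26) and 26.6-fold apart under the label shDis3l2 (log2 -4.73).

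U7 was lower in relation to the major RNAs under the label shDis3l2. Rnu7 had 0.897 counts per count of Rnu1a1 and Rnu5g in the shNS cell library and 0.462 in the cell library labelled shDis3l2, and 1.01 and 0.417 in the vesicle libraries in the same order. The log2 change was -0.96 (-1.01 to -0.90) in cells and -1.27 (-1.34 to -1.20) in vesicles. The value in cells rested mainly on Rnu1a1: against Rnu5g alone it was -0.32 (-0.44 to -0.21), and with near copies summed the log2 ratios of Rnu7 and Rnu5g in cells were 0.40 and 0.39. Against Rnu5g alone the value in vesicles was -1.43. Between the compartments the ratio was close, with log2 changes of 0.17 and -0.15 under the labels shNS and shDis3l2. Under the label shDis3l2 this rested on Rnu1a1. There the log2 ratios of vesicles against cells were -1.42 for Rnu7 and -1.43 for Rnu1a1, but -0.14 for Rnu5g. Within the major pair, the ratio of Rnu1a1 to Rnu5g was 6.71 in shNS cells, 5.14 in shNS vesicles and 4.48 in vesicles under the label shDis3l2, and it was 1.63-fold higher in cells under the label shDis3l2 than in shNS cells (log2 0.71, 0.60 to 0.82).

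**Figure D4:**
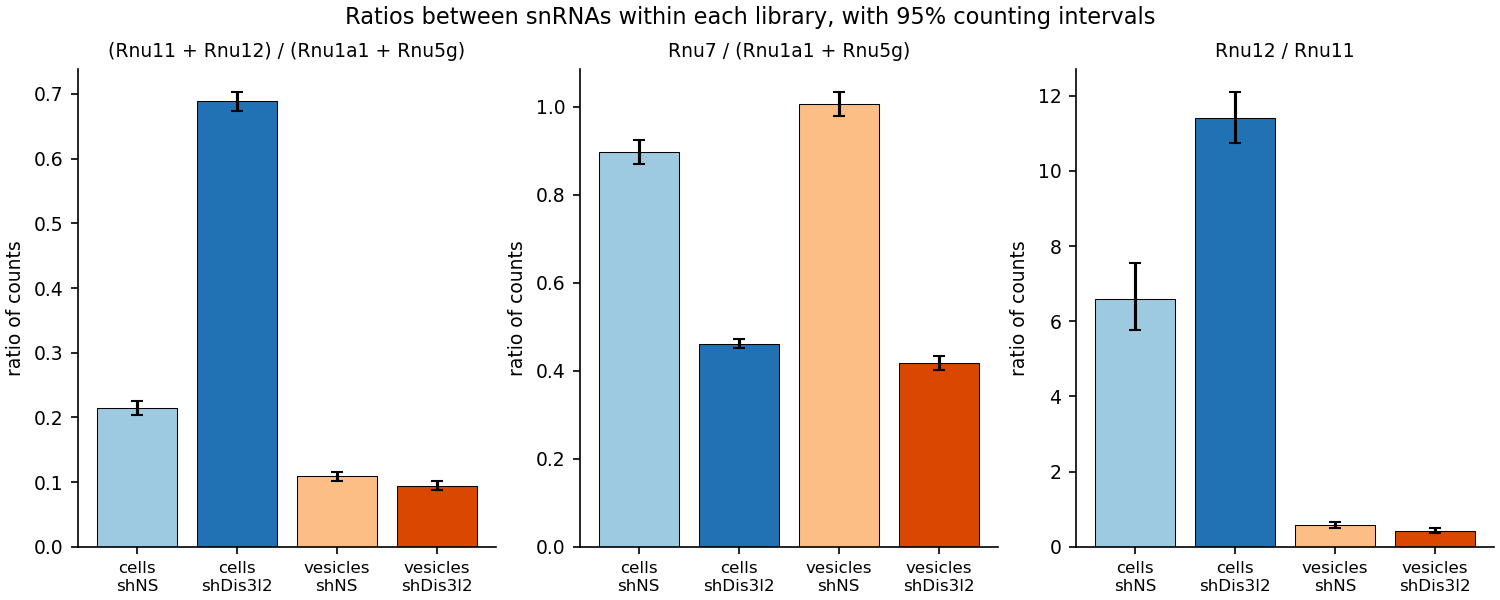
Ratios of counts within each library for the minor against the major spliceosome genes, for Rnu7 against the major genes and for Rnu12 against Rnu11, as bars from 0 with 95% intervals for counting error. The minor-to-major bar is highest in the cell library labelled shDis3l2 (0.689), both bars labelled shDis3l2 are the lower ones for Rnu7 (0.462 and 0.417), and the Rnu12-to-Rnu11 bars of the vesicles (0.577 and 0.429) are far below those of the cells.

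All 5 genes had a label ratio above 0 in cells and below 0 in vesicles. The difference, vesicles minus cells, was -3.90 for Rnu12 (-4.14 to -3.67), -2.69 for Rnu11, -1.96 for Rnu7, -1.76 for Rnu1a1 and -0.85 for Rnu5g on the log2 scale. Among 2638 genes with at least 100 counts in each pair of libraries, ordered from the lowest difference, Rnu12 was number 18, Rnu11 number 48, Rnu7 number 116, Rnu1a1 number 148 and Rnu5g number 466, and the median difference was 0.02. With 1 library in each group this difference could not be tested. Summed over near copies, all 5 kept both signs. These signs were not particular to the 5. On the scale of all counts most other snRNA-typed genes measured in both pairs had them too, among them Gm24407 and Gm24265. Others, such as Gm23849, did not, and the share over all genes was not computed. The median label log2 ratio of all genes measured in each pair was 0.10 in cells and 0.31 in vesicles.

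A fit over the 4 libraries had compartment and label as additive terms, with 1 residual degree of freedom, and took the departure from additivity as its spread. It assumes the same label ratio in cells and in vesicles. The label ratios of the 5 members had opposite signs there, which partly cancel in this fit and widen its spread. Its label test therefore cannot decide about the label ratio in either compartment alone. By edgeR's quasi-likelihood test 0 of the 5 members had a label effect (adjusted p = 0.999908 for each, unadjusted p from 0.315 to 0.832), where 0.205% of 10718 genes did, and DESeq2 also gave 0. For the compartment, edgeR with its own scaling factors (TMM) placed 4 of the 5 lower in vesicles, where 23.0% of genes were. These were Rnu12 (log2 -5.80, adjusted p = 0.00145), Rnu1a1 (-2.56, adjusted p = 0.0141), Rnu7 (-2.44, adjusted p = 0.0207) and Rnu5g (-1.73, adjusted p = 0.0420), while Rnu11 stood at -1.68 (adjusted p = 0.112), all by edgeR. With library totals in place of these factors Rnu12 was the member left, at -3.79 (adjusted p = 0.00302, edgeR), and Rnu11 and Rnu5g turned to 0.32 and 0.28.

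Other snRNA-typed genes gave a mixed picture. U2, which pairs with the branch point in the major spliceosome, is represented by Gm23849, whose sequence is identical to that of Rnu2-10. It had 4433, 13703, 9654 and 10609 counts, was 1.73 higher on the log2 scale under the label shDis3l2 in cells and stood at 0.18 in vesicles. The cell value lay between those of Rnu1a1 and Rnu11, and the vesicle value was above 0 on the scale of all counts, unlike those of the 5 members, but turned to -0.11 and -0.094 with TMM and DESeq2 size factors. With U2 added to the major genes, a choice made after the values were seen, the minor-to-major ratio changed by a log2 value of -1.32 between vesicles and cells labelled shNS.

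Gm24407 and Gm24265, snRNA-typed genes of 141 bases whose kind the sources used here do not name, had 5854, 10430, 1889 and 736 counts and 4884, 10358, 2407 and 1003 counts. Their label log2 ratios were 0.93 and 1.18 between the cell libraries and -1.31 and -1.22 between the vesicle libraries, the same signs as the 5 members. Gm23472, which shares 108 bases in a row with Rnu2-10, stood at 0.47 and -1.14. Gm25313 and Gm25099, the U5 relatives, stood at 0.74 and 0.15 in cells, and in vesicles at -0.35 and -0.44. The rows of Rnu1b1 and of Gm25829, which carries the sequence of Rnu6, had 0 counts in all 4 libraries. Another snRNA-typed row, which shares 87 bases in a row with Rnu6, had 191 to 1199 counts, so U6 cannot be called absent. Gm24830, identical to Rnu1b6, had 17, 35, 178 and 147 (rounded estimates).

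Over the other snRNA-typed genes with at least 100 counts, 7 of 20 were at least 2-fold higher and 1 lower under the label shDis3l2 in cells, against 13.8% and 5.00% of all genes. In vesicles 0 of 31 were higher and 8 lower, against 10.4% and 2.51%, with a median log2 ratio of -0.35. Under the label shNS 18 of 27 were higher in vesicles than in cells and 1 lower, and under the label shDis3l2 11 of 26 were higher and 5 lower, where 74.7% and 77.0% of all genes were higher and 13.5% and 12.9% lower. Within the whole measured class Rnu12 ranked number 2 of 25 and Rnu11 number 3 in cells, and Rnu12 was the lowest of 32 between vesicles and cells labelled shNS. The 5 members held 41.7% and 48.4% of all snRNA-typed counts in the cell libraries and 38.2% and 30.3% in the vesicle libraries.

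**Figure D5:**
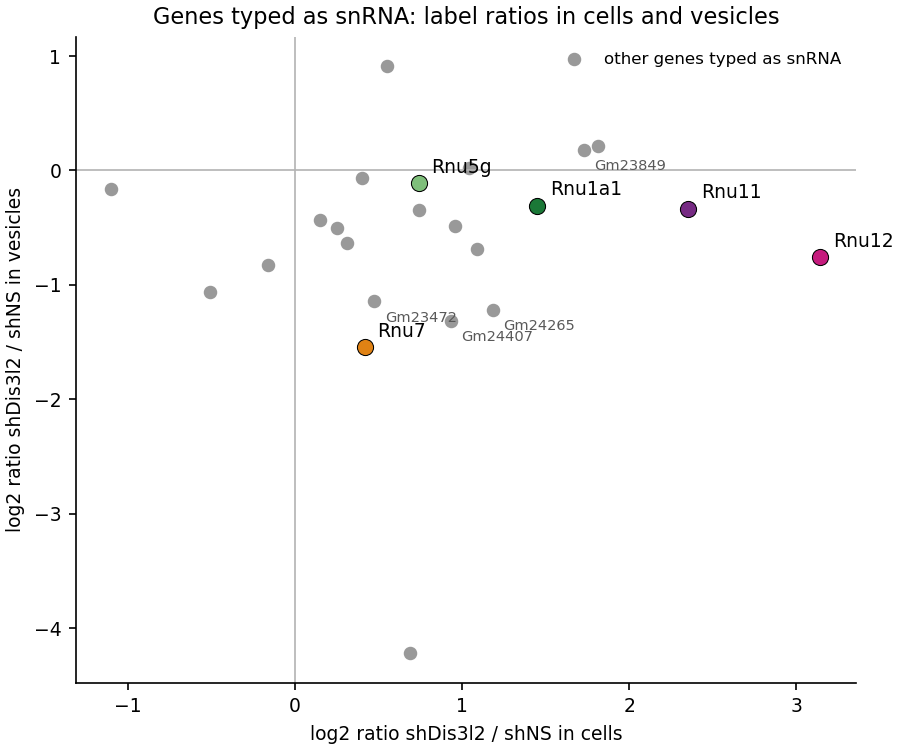
Label log2 ratios in cells (horizontal axis) and in vesicles (vertical axis) of the snRNA-typed genes with at least 100 counts in both pairs of libraries. The 5 members (coloured) all lie at the lower right, above 0 in cells and below 0 in vesicles, with Rnu12 farthest right (3.14) and Rnu7 lowest of the 5 (-1.55). Most of the other genes drawn lie there too.

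The counts of listed genes that follow are read against all genes, of which 13.8% were higher and 5.00% lower between the labels in cells, 10.4% and 2.51% in vesicles, 74.7% and 13.5% between vesicles and cells under the label shNS, and 77.0% and 12.9% under the label shDis3l2. For the protein lists, shares higher in vesicles than in cells such as 11 of 16, 5 of 7 and 9 of 12 are near that background. Others lay farther from it, such as 17 of 18 above it and 4 of 7 below it under the label shDis3l2. Small Cajal body RNAs (scaRNAs) guide the chemical modification of spliceosomal snRNAs. Among the 9 that the table holds, 8 were measured in cells, where 3 were at least 2-fold higher under the label shDis3l2 and 0 lower: Scarna10 (1069 and 3836 counts, log2 1.94), Scarna9 (988 and 3294, log2 1.84) and Scarna17 (79 and 214, log2 1.53). Their median was 0.66, against 0.10 over all genes. In vesicles 1 of 4 was lower, Scarna3a (90 and 27 counts, log2 -1.67), and 0 higher. In vesicles 5 of 6 were lower than in cells under the label shNS, led by Scarna9 (-4.23), Scarna6 (-3.40), Scarna10 (-1.87) and Scarna2 (-1.47), and all 7 measured were lower under the label shDis3l2. There Scarna9 stood at -6.35, Scarna6 at -4.93 and Scarna10 at -4.35, and Scarna17, at 0 counts in vesicles, was at least 68.2-fold lower with a floor of 3 counts. The medians were -1.67 and -4.35, against 2.19 and 2.42 over all genes.

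Protein-coding partners of the snRNAs were seen only as fragments in these small RNA libraries. Of 16 genes for minor spliceosome proteins 2 reached 100 counts in cells, and 1 of them was higher under the label shDis3l2, Rbm41, which binds the ends of U12 and U6atac in human cells (40 and 134 counts, log2 1.83). In vesicles 0 of 4 passed 2-fold (median 0.17, against 0.31 over all genes). For vesicles against cells 3 of 3 were higher under the label shNS, Dhx15 (1.91), Pdcd7 (1.83) and Snrnp48 (1.21). Under the other label 3 of 4 were higher, Pdcd7 (3.24), Snrnp48 (1.99) and Dhx15 (1.96), and Rbm41 was lower (-1.16). The list medians were 1.83 and 1.97, against 2.19 and 2.42 over all genes.

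Of 26 genes for Sm and major snRNP proteins 7 were measured in cells and 1 was higher, Sf3b1, a U2 snRNP protein (83 and 161 counts, log2 1.05). In vesicles 1 of 21 was higher, Snrnp70, the U1 protein U1-70K (257 and 866 counts, log2 1.80). Vesicles against cells gave 11 of 16 higher and 2 lower under the label shNS (median 1.52), and 13 of 16 higher and 2 lower under the label shDis3l2 (median 2.32). The 4 farthest under the label shNS were Prpf8 (4.09), a scaffold protein of U5, Snrpb (-3.74), which encodes the Sm protein B, Snrpe (3.60) and Sf3b1 (2.81). With the other label they were Snrpb (-4.63), Snrpe (4.12), Snrnp70 (3.75) and Sart3 (3.51). Nearly all Snrpb counts in cells, 5242.4 of 5245 and 6345.5 of 6349, lay on 1 transcript annotated as a retained intron.

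Of 10 genes of the U7 particle and histone mRNA processing 4 were measured in cells and 8 in vesicles, and 0 passed 2-fold between the labels in either (medians 0.27 and 0.28). In vesicles against cells, 5 of 7 were higher under the label shNS and 4 of 7 under the label shDis3l2, with 0 lower. Lsm11, a ring protein particular to U7 by textbook knowledge, stood at 2.15 and 3.10, and Casp8ap2 at 2.04 and 2.52. Cpsf2, a subunit of the cleavage machinery, stood at 1.45 and 1.60, Cstf2 at 1.08 under the label shNS, and Sympk at 1.73 under the label shDis3l2. The list medians were 1.08 and 1.60. On the same scale of all counts the median of all genes was 2.19 and 2.42.

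Of 24 genes for snRNA transcription, export and assembly 4 were measured in cells and 1 was higher under the label shDis3l2, Snapc3, a subunit of the complex that starts snRNA transcription (43 and 15804 counts, log2 8.61). Of the 15804 counts, 15795.6 lay on 1 transcript annotated as a retained intron, and Dis3l2 had 13232 counts in the same library. In vesicles 1 of 17 was higher, Gemin5, the snRNA-binding protein of the SMN complex (75 and 146 counts, log2 1.00). In vesicles 9 of 12 were higher than in cells under the label shNS (median 1.78), led by Snapc3 (5.37), Strap (3.35), Gemin4 (3.11) and Ddx20 (3.07). With the label shDis3l2, 9 of 12 were higher and 2 lower (median 2.54), led by Gemin5 (4.17), Wdr77 (3.43), Gemin4 (2.80) and Snapc3 (-2.76).

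Of 29 listed genes of snRNA end processing and decay, 6 were measured in cells, and the 1 that was higher was Dis3l2 (log2 8.42). In vesicles 0 of 22 passed 2-fold between the labels. Compared with cells, 10 of 13 were higher in vesicles under the label shNS (median 1.75), led by Ints13, an Integrator subunit (207 and 24588 counts, log2 7.01), Dis3l2 (5.49), Ssb (3.62), which encodes the La protein, and Usb1 (3.43), which trims the end of U6. With the label shDis3l2, 17 of 18 were higher (median 2.07), led by Ints13 (6.40), Usb1 (3 counts in cells, log2 5.55), Ints5 (3.11) and Ints7 (3.04), and Dis3l2 was lower (-2.74). For Ints13, 24542.0 of the 24588 counts lay on a retained-intron transcript. Of 10 other named snRNA genes listed, Rnu1b1, at 0, and Rnu73b were in the table under their own symbols. Rnu73b, which the annotation types as a small nucleolar RNA, stood at 0.18 in cells and -0.48 in vesicles between the labels, and at -4.90 and -5.55 between vesicles and cells.

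The genes most like each member in their pattern over the 4 libraries were found among 2048 genes with at least 1000 counts, by the Euclidean distance of log2 CPM centred on each gene's mean. For Rnu12 they were the hairpin Mir7033 (295, 1915, 54 and 34 counts, distance 0.35), the snoRNA host transcript Snhg5 (0.67) and 9230114K14Rik (0.73). For Rnu11 the nearest were Ddx39b (0.54) and Eif4a1 (0.56), and for Rnu1a1 the snoRNA Snora57 (0.29), Abca3 (0.40) and Pex5l (0.46). Rnu5g was nearest to the tRNA Ser-GCT-2-1 (0.17), Gnptab (0.24) and Rpl13a (0.26), and Rnu7 to Ccdc7a (0.59), the hairpin Mir99a (0.59) and the U2 relative Gm23472 (0.66). Between the members themselves the distance was smallest for Rnu1a1 and Rnu5g (0.98) and largest for Rnu12 and Rnu5g (4.44). Rnu11 and Rnu12, the minor spliceosome pair, lay 4.17 apart, so 4 values per gene placed Rnu11 nearer to Rnu1a1 (1.09) than to Rnu12.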

How the data were processed

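The deposited table gives estimated counts per transcript for 4 libraries. Per the labels' protocols, libraries came from a QIAseq miRNA kit and reads were 50 nt long. Per the submitters' processing notes, cutadapt, Salmon and Novoalign were used with GRCm38 and mm10. Their versions, and whether reads were collapsed to molecules, are not given in the sources used here. Names came from GENCODE M21; 1201 unnamed transcripts held at most 0.134% of a library and entered totals only. Values were summed by gene and rounded to whole numbers. Log2 ratios used CPM with a pseudocount of 0.5 and genes with at least 100 counts in 2 libraries. Intervals are exact (Clopper-Pearson) and, for ratios of ratios, from counting variances; they and the floor of 3 counts cover counting error only, since reads need not be independent molecules. edgeR 4.0.16 and DESeq2 1.42.0 (R 4.3.3) fitted the additive model with Benjamini-Hochberg adjustment. Ratios and fits were tested on simulated data. For the fits these had no compartment difference and the same label effect in both compartments, unlike the measured libraries. The p-values test the label and compartment terms. With 1 library per group, their spread comes from the departure from additivity, which may be technical. The members, lists and tests were chosen with earlier results of these data known, and AATTTNT after the sequences were seen. Named genes are the 5 members, near copies above 1% of a member's counts, the 6 most abundant other snRNA-typed genes, up to 4 genes per list and comparison past 2-fold, the 3 nearest patterns per member (1 is not reported here), and Dis3l2; Gm24830, Gm25829, Rnu1b1, Malat1 and Neat1 were added. Promoter windows of the members were not analysed here.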

Additional observations from a re-analysis of the deposited data

Results flagged for a closer look

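The 5 genes had label ratios of opposite sign in cells and in vesicles, as did most other snRNA-typed genes measured in both. On the log2 scale the difference, vesicles minus cells, was -2.69 for Rnu11, -3.90 for Rnu12, -1.76 for Rnu1a1, -0.85 for Rnu5g and -1.96 for Rnu7. The signs were the same in all 5 under the scale outside miRNA hairpins, edgeR TMM, DESeq2 size factors and the total without the 5 most abundant genes, and in 1 of 5 with the miRNA total. Of 5 count ratios that need no scale, 3 also had opposite signs: the label change of the minor-to-major ratio differed by -1.89, that of Rnu12 to Rnu11 by -1.21 and that of Rnu1a1 to Rnu5g by -0.90. The other 2 had the same sign in cells and vesicles, U7 to major at -0.96 and -1.27 and U7 to minor at -2.64 and -1.07. The opposite sign of Rnu1a1 to Rnu5g rested on the Rnu5g row, which the minor-to-major ratio also takes in. With near copies summed, the label log2 ratios of Rnu1a1 and Rnu5g were 1.43 and 0.39 in cells. In vesicles they were -0.379 and -0.385, so that opposite sign was lost. None of these differences was tested, since each group is 1 library. No group has enough libraries to look for one that stands apart.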

How the results depend on the processing

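No paired analysis was possible because each group holds 1 library, beyond the additive fit, which already holds compartment as a block for the label and the reverse. Leaving out a library ends a comparison. Of 218 member ratios under other settings 188 kept sign and call, as did all 5 label differences with near copies summed. The 188 include the settings of the count minimum, which choose the genes measured and cannot change a member's own ratio. Between vesicles and cells under the label shNS, edgeR TMM and DESeq2 size factors gave -0.23 and -0.26 for Rnu11, -1.58 and -1.60 for Rnu1a1, -1.19 and -1.22 for Rnu5g, and -1.35 and -1.38 for Rnu7. The scale outside miRNA hairpins gave -1.02 for Rnu1a1. With the miRNA total, the values under the label shDis3l2 were 1.52 for Rnu11, 1.11 for Rnu1a1, 2.40 for Rnu5g and 1.12 for Rnu7. These reversals follow from the scale itself.

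The counts of members past 2-fold between vesicles and cells under the label shNS, 1 higher and 1 lower, became 0 and 4 with TMM or DESeq2 size factors, 0 and 2 outside miRNA hairpins, and 4 and 0 with the miRNA total. All genes, 74.7% higher and 13.5% lower, moved with them, to 30.3% and 24.2% with TMM, 29.8% and 24.4% with DESeq2 size factors, 45.3% and 19.9% outside miRNA hairpins and 85.9% and 6.31% with the miRNA total. Of the members, 0 were higher with a minimum of 1000 counts, which drops genes. Under the label shDis3l2 the miRNA total gave 4 higher and 1 lower (all genes 88.7% and 5.68%). In vesicles the count of lower members, 1, became 2 with TMM or DESeq2 size factors (all genes 4.67% and 4.52%) and 0 with the miRNA total (0.603%). Over the 4 comparisons, 14 of 88 member counts and 41 of 88 counts over all genes moved by over 1.5 times or to or from 0. In cells no setting run moved a member count so far. Counts over all genes also follow the number of genes measured. With a minimum of 10 counts, 2226 of 19741 genes (11.3%) were higher in cells, against 468 of 3402 (13.8%).

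With Rnu11 alone as the minor RNA, the minor-to-major change was 0.98 in cells, and 1.29 and 0.25 between vesicles and cells under the labels shNS and shDis3l2. With Rnu12 alone it was -2.22 under the label shNS, with Rnu5g alone as the major RNA -1.31, and with Gm23849 added -1.32. The U7-to-major change in cells was -1.03 with Rnu1a1 alone, -1.08 with Gm23849, -0.32 with Rnu5g alone and -0.62 with near copies summed. Between vesicles and cells it was 0.016 under the label shDis3l2 with Rnu1a1 alone, -0.16 and -1.27 with Rnu5g alone under the labels shNS and shDis3l2, and -0.18 under the label shNS with Gm23849. The cause was not tested.

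In the additive fit, the compartment effects with library totals were 0.32 for Rnu11, 0.28 for Rnu5g, -0.55 for Rnu1a1 and -0.43 for Rnu7. With a minimum of 10 counts they were -0.93 for Rnu5g (adjusted p = 0.240, edgeR) and -1.64 for Rnu7 (adjusted p = 0.0578, edgeR). For the label, edgeR called 11 genes up and 11 down and DESeq2 3 and 13, and at least 10 counts gave 56 and 54. For the compartment, library totals gave 7747 up and 1190 down against 1930 and 2464 with TMM. Rnu12 in vesicles rests on 429 and 245 counts, the thinnest depth of a member beside Rnu11 in shNS cells.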
